A study of Homo sapiens with 6 samples.

Results

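Unnamed transcripts whose levels differed between SND1 knockdown and vector control cells are described here. They were chosen on 6 single-colour human transcriptome arrays as probe sets with an ID starting TC, no gene symbol in the platform annotation and a mean log2 difference (SND1 knockdown minus vector control) of at least 1 or at most -1. The rule found 751 transcripts, 385 higher and 366 lower, among 42204 unnamed and 67528 named or unnamed TC probe sets and 70523 probe sets in all. The shares of unnamed TC probe sets were therefore 0.912% higher and 0.867% lower, against 1.90% and 2.33% of the 25324 TC probe sets with a symbol. Over all 70523 probe sets, 1.32% were at least 1 higher and 1.42% at least 1 lower, together 2.74%. Since the rule used this contrast, the differences of the members are a description and are given without a test. A probe set without a symbol is unnamed in the table used here, which does not show that no gene lies there.

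The arrays carried RNA from SKOV3, an established human ovarian carcinoma line. In the knockdown group, 3 arrays came from a stable SKOV3 line holding the pLKO hairpin shSND1-#2, and in the control group, 3 arrays came from a stable SKOV3 line holding the empty pLKO vector. Both lines were grown untreated in McCoy's 5A medium with 10% serum. All knockdown arrays share 1 hairpin, the label of 1 of them carries an additional number of unstated meaning, and the labels do not say that the arrays of a group came from separate cultures, so the spread between them may be technical.

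SND1 encodes a protein with staphylococcal nuclease-like and tudor domains that takes part in transcription, splicing, microRNA-guided silencing and the decay of edited RNA. Many transcripts outside annotated genes are long noncoding RNAs, antisense RNAs, extensions of neighbouring genes or copies of repeated sequence, and arrays of this kind carry probe sets for them alongside those for known genes. Long noncoding RNAs are known for strong differences between cell states, and some act on the chromatin or transcription of nearby genes, which is why the named probe sets beside each unnamed transcript are given where the IDs allow it.

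The SND1 probe set, which also covers a transcript from within the gene, was at 5.88, 5.70 and 5.99 log2 units on the knockdown arrays, against 8.83, 8.60 and 8.80 on the control arrays. All knockdown arrays lay below all control arrays, with a log2 difference of -2.89 ± 0.10 (SE; limma adjusted p = 1.7e-05 over 70523 probe sets). Over all probe sets limma called 13.8%, and the groups did not overlap for 29.8%. Pearson's r across the 70523 probe sets, which are not independent, was 0.9954 to 0.9968 between arrays of the same group and 0.9875 to 0.9892 between knockdown and control arrays. Of 9 measured markers of the line, WT1 alone lay at or below background in both groups. KRT7 averaged 11.97 ± 0.03 on knockdown arrays and 11.73 ± 0.07 on control arrays (SD, n = 3 each), and PAX8 averaged 12.37 ± 0.01 and 12.30 ± 0.03. Other markers of the line differed more. EPCAM averaged 14.24 ± 0.13 on knockdown arrays and 11.31 ± 0.18 on control arrays, KRT8 13.59 ± 0.08 and 14.98 ± 0.11, and MUC16 4.53 ± 0.02 and 6.53 ± 0.15 (SD, n = 3 each). The blood cell, endothelial and liver markers PTPRC, CD3E, PECAM1, CDH5 and ALB all lay below the highest background control mean in knockdown and control cells.

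No file used here holds the sequences of the unnamed transcripts. The promoters of 4 named genes are shown instead, because the probe set of each carries the ID number next to that of an unnamed transcript and differed by at least 1 in the same direction. Each stands beside a transcript above background in at least 1 group. The 4 genes are examples chosen after their values were seen and are no ranking. Among other such genes, GPRIN3, CXADR and HMGA2 stand beside transcripts that differed by 4.81, 2.84 and 2.54. Those differences were larger than those of the transcripts beside ASS1 and MECOM. They run from 250 bases before to 50 bases after the RefSeq start in build GRCh38.p14, 5′ to 3′ on the gene's strand, with capitals marking CACCTG or its reverse complement CAGGTG. This hexamer is the E-box known to be bound by the SNAI2 and ZEB1 repressors, and 20.6% of 27305 RefSeq promoters of this length hold it on either strand. The SERPINB5 promoter lies at chr18:63476708-63477007 on the plus strand, FOLR3 at chr11:72135475-72135774 on the plus strand, ASS1 at chr9:130444457-130444756 on the plus strand and MECOM at chr3:169663663-169663962 on the minus strand. The windows of SERPINB5 and FOLR3 hold 1 match each and those of ASS1 and MECOM hold 0, which describes 4 windows and is no comparison with the share above.
SERPINB5: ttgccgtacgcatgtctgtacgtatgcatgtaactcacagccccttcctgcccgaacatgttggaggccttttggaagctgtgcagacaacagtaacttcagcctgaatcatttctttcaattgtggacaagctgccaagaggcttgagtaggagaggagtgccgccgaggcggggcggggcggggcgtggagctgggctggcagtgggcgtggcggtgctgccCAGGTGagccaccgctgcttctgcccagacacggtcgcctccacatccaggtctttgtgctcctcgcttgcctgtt
FOLR3: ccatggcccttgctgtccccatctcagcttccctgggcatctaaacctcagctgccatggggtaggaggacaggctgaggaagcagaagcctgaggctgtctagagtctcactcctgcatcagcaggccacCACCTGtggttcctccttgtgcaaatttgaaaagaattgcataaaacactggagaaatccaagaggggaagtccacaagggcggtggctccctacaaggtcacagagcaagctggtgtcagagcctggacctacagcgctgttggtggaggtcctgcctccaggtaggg
ASS1: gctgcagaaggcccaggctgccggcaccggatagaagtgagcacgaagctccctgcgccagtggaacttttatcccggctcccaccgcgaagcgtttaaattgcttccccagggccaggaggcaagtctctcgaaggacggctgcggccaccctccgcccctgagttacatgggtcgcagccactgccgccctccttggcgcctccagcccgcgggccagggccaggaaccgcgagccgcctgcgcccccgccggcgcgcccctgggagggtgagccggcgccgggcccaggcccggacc
MECOM: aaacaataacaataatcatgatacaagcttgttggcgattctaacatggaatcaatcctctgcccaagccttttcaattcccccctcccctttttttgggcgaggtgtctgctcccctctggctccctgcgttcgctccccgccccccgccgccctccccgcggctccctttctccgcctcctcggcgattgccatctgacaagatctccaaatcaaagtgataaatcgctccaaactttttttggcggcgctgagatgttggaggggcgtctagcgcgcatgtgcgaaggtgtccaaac

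SERPINB5, encoding the serpin maspin, stands next to TC18000225.hg.1. That transcript measured 5.06, 5.09 and 3.97 log2 units on knockdown arrays, against 9.07, 10.19 and 6.90 on control arrays. The groups did not overlap, but the control arrays spanned more than 3 log2 units. SERPINB5 itself averaged 7.32 ± 0.09 on knockdown arrays and 10.34 ± 0.05 on control arrays (SD, n = 3 each). The gene on the other side, PHLPP1, encoding an AKT phosphatase, differed by -1.02.

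FOLR3 and FOLR1, encoding a secreted folate receptor and the folate receptor found on many ovarian carcinomas, enclose the 2 unnamed transcripts TC11000752.hg.1 and TC11000753.hg.1. The first measured 9.84, 9.47 and 9.48 on knockdown arrays, against 13.08, 12.98 and 12.88 on control arrays, a difference of -3.38. The second measured 7.19, 7.07 and 6.90, against 10.56, 9.91 and 10.34, a difference of -3.22. Both were lower on every knockdown array than on any control array. FOLR1 averaged 7.34 ± 0.10 on knockdown arrays and 9.15 ± 0.02 on control arrays (SD, n = 3 each), a smaller difference of -1.81. FOLR3, at -1.26, had means below the highest background control mean in knockdown and control cells.

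ASS1, the urea cycle enzyme argininosuccinate synthase, stands next to TC09000737.hg.1, which measured 11.88, 11.63 and 12.24 on knockdown arrays, against 9.58, 9.62 and 9.55 on control arrays. All knockdown arrays lay above all control arrays. The difference of the transcript was 2.33 and that of ASS1 was 2.44. MECOM, encoding a zinc finger transcription factor, stands next to TC03001980.hg.1, at 8.39, 7.52 and 8.77 on knockdown arrays against 6.41, 6.41 and 5.82 on control arrays. Their differences were 2.01 for the transcript and 1.19 for MECOM.

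How far the IDs place a transcript was checked first. Each ID holds a chromosome and a number, and on 24 chromosomes the numbers fall into 4 parts. In a first and a second series, which hold most of the named probe sets, 98.6% of 19127 steps from one named gene to the next ran forward along the chromosome by the order of RefSeq genes. Of named genes with a known strand, 99.6% of those in the first series lie on the plus strand and 99.8% of those in the second on the minus strand. After them a stretch of 22723 probe sets, carries no symbol at all, and then a short last part returns to named probe sets. Named numbers therefore place transcripts only in the series, and for those in the stretch the nearest named number lies at a median distance of 255 numbers and marks no neighbour.

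Most members lay in that stretch. It held 496 of the 751, 247 higher and 249 lower, which is 2.18% of its probe sets. The first series held 102 of its 9350 unnamed probe sets and the second 144 of 9570, with 2 in the last part. The other 7 lay on alternative haplotypes or unplaced sequence.

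Background here is the highest mean of 23 background control probe sets, 6.28 log2 units, since the files hold no detection calls. The lowest of these means was 2.38 and their median 3.11, so the limit is strict and not a typical background level. The brighter group lay above it for 291 of the 385 higher transcripts and 271 of the 366 lower ones. Both groups lay above it for 188 and 165. A member can pass the first of these limits through the group where the rule made it high, so no share of other probe sets is set beside it. With lower levels raised to that mean, 225 higher and 216 lower transcripts still differed by at least 1, and the other members differed by at least 1 only through levels under that mean. For a transcript with its dimmer group no brighter than 6.28, the fold is given as a minimum, the brighter mean over that level.

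The typical member differed little more than the rule asks. The median was 1.28 among the higher transcripts and -1.38 among the lower ones. A size of at least 2 was reached by 65 higher and 87 lower transcripts, a size of 3 by 18 and 39, and a size of 4 by 9 and 15. The median SD between arrays was 0.17 in the knockdown group and 0.16 in the control group. Over the higher transcripts the median level was at least 7.88 on each knockdown array, against at most 6.31 on each control array. Over the lower ones it was 5.87 to 6.02 on knockdown arrays, against 7.87 to 7.91 on control arrays. Of the members, 742 had groups without overlap, against 21.9% of unnamed TC probe sets, and 699 were among limma's calls, against 8.50%. The rule made both counts likely, and nothing is read from them.

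**Figure D1:**
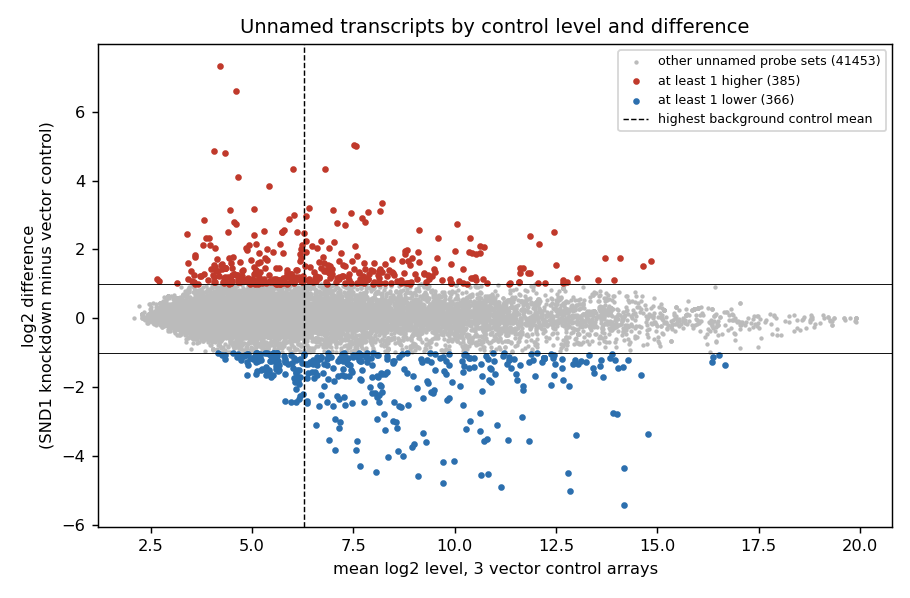
Each point is 1 of the 42204 unnamed TC probe sets, with its mean log2 level on the 3 vector control arrays across and its log2 difference (SND1 knockdown minus vector control) upward. Red points are the 385 higher and blue points the 366 lower members, and the dashed line marks the highest background control mean of 6.28. Higher members lie on both sides of that line, while the members more than 3 lower lie to its right.

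The shares of higher and lower members varied with the control level, which is 1 of the 2 values the rule subtracts, so this is a description. Between 4 and 5 log2 units in control cells, 0.877% of unnamed probe sets were higher and 0.205% lower. The shares lay closer between 5 and 6 units, at 2.00% higher and 1.58% lower, between 6 and 7 units, at 3.14% and 2.80%, and between 7 and 8 units, at 3.44% and 4.04%. Between 8 and 10 units the shares were 3.93% higher and 4.96% lower, and above 12 units 1.62% higher and 5.74% lower. Below 4 units, 24 of 23075 unnamed probe sets were higher and 0 lower. A dim transcript cannot show a large decrease on this scale, which limits the shares of lower ones at low control levels.

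At the threshold, TC05000815.hg.1, TC01004046.hg.1 and TC06003936.hg.1 were just inside on the higher side, at 1.000 to 1.001, and TC02003428.hg.1, TC09002547.hg.1 and TC02004436.hg.1 just outside, at 0.99632 to 0.99974. On the lower side TC03003014.hg.1, TC04002120.hg.1 and TC21000879.hg.1 were just inside, at -1.00022 to -1.00113, and TC01004680.hg.1, TC10001868.hg.1 and TC07002461.hg.1 just outside, at -0.99898 to -0.99285. Such gaps are far smaller than the median SD between arrays, so the threshold separates these transcripts only formally.

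Among the 12 transcripts with the highest difference, TC03002788.hg.1 led. It measured 11.68, 11.45 and 11.47 log2 units on knockdown arrays, against 4.42, 3.76 and 4.44 on control arrays, a difference of 7.33 or at least 38.1-fold. TC21000594.hg.1 measured 11.31, 11.22 and 11.09 on knockdown arrays, against 4.36, 5.04 and 4.44 on control arrays, a difference of 6.60 or at least 30.4-fold. Both were within the background range in control cells and bright on every knockdown array. They lie in the stretch without symbols, on chromosomes 3 and 21, so no neighbour can be given.

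Chromosome 5 gave 4 of the 12. TC05001550.hg.1 measured 12.60, 12.32 and 12.83 on knockdown arrays, against 7.96, 7.25 and 7.50 on control arrays, a 32.2-fold difference. TC05001551.hg.1, the next number, measured 10.72, 9.60 and 10.70, against 5.98, 6.14 and 5.90, at least 16.7-fold. They lie in the second series between RPS23, encoding a ribosomal protein, and TMEM167A, whose differences were -0.18 and 0.01, so the named probe sets on both sides differed far less than the transcripts between them. In the stretch, TC05003120.hg.1 measured 12.63, 12.31 and 12.68, against 7.91, 7.27 and 7.36, a 32.7-fold difference. On no array did it depart from TC05001550.hg.1 by more than 0.15, and its neighbour by number, TC05003119.hg.1, was at least 7.89-fold higher.

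Chromosome 4 gave 2 more. TC04001381.hg.1 measured 9.06, 8.95 and 9.43 on knockdown arrays, against 4.47, 4.08 and 4.46 on control arrays, a difference of 4.81 or at least 7.30-fold. It stands between FAM13A, at -0.14 with means below 6.28 in knockdown and control cells, and GPRIN3, a membrane protein gene of the G protein-regulated inducer of neurite outgrowth family, at 3.93. GPRIN3 averaged 8.14 ± 0.18 on knockdown arrays and 4.21 ± 0.17 on control arrays (SD, n = 3 each). TC04002627.hg.1, in the stretch, measured 8.77, 8.83 and 9.15, against 3.92, 4.10 and 4.16, at least 6.22-fold. All 3 knockdown arrays were above all control arrays for both transcripts.

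The remaining 4 were bright in knockdown cells. TC12002825.hg.1 was 4.33 log2 units higher, at 11.19, 11.18 and 10.98 on knockdown arrays against 6.98, 6.61 and 6.78 on control arrays. TC06002842.hg.1 was at least 5.48-fold higher. The consecutive TC0X001640.hg.1 and TC0X001641.hg.1 on chromosome X were 10.1-fold and 9.17-fold higher, with array SDs of at most 0.08 in either group.

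TC19002012.hg.1 showed the lowest difference of all members. It measured 8.63, 8.70 and 8.94 log2 units on knockdown arrays, against 14.11, 14.18 and 14.23 on control arrays, a difference of -5.42, or a level 42.8-fold higher in control cells. TC19002060.hg.1, at 9.97, 9.71 and 9.79 against 13.99, 14.22 and 14.34, and TC19002300.hg.1, at 8.48, 8.61 and 7.79 against 12.76, 12.70 and 12.93, were 20.5-fold and 22.7-fold higher in control cells. All 3 chromosome 19 transcripts stayed above background on every knockdown array.

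On chromosome 11, TC11002894.hg.1 measured 8.20, 7.80 and 7.47 on knockdown arrays, against 12.40, 12.89 and 13.22 on control arrays, a difference of -5.01. TC11002874.hg.1 measured 6.28, 5.82 and 6.21, against 10.60, 10.76 and 10.60, a difference of -4.55. The knockdown levels of the first stayed above 6.28, whereas those of the second had a mean of 6.10. The other 7 of the 12 lowest were TC09002032.hg.1 (-4.89), TC21000892.hg.1 (-4.79), TC04002263.hg.1 (-4.57), TC20001408.hg.1 (-4.52), TC10002843.hg.1 (-4.45), TC07002911.hg.1 (-4.30) and TC08001988.hg.1 (-4.17). In none of the 12 did the groups overlap, and all 12 lay in the stretch without symbols.

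**Figure D2:**
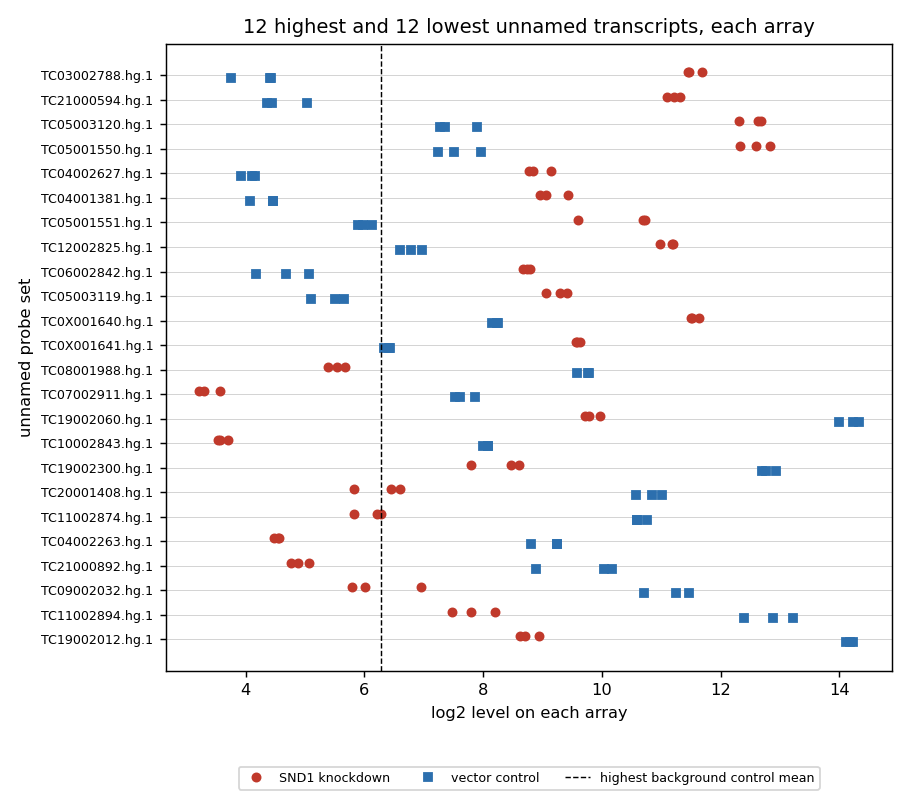
Log2 levels on each array are shown for the 12 members with the highest and the 12 with the lowest difference among those above background in 1 group, with SND1 knockdown arrays as red circles and vector control arrays as blue squares. The dashed line marks the highest background control mean of 6.28, and in each row the circles and squares lie apart, from TC03002788.hg.1 at 7.33 at the top to TC19002012.hg.1 at -5.42 at the bottom.

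The brightest members changed much less. TC06002848.hg.1, the brightest higher one, averaged 16.49 ± 0.11 on knockdown arrays and 14.83 ± 0.06 on control arrays (SD, n = 3 each), 3.16-fold. TC04002100.hg.1 and TC04001438.hg.1 followed at 2.89-fold and 3.34-fold. Among lower ones, TC13000716.hg.1 averaged 15.31 ± 0.15 on knockdown arrays and 16.66 ± 0.09 on control arrays (SD, n = 3 each), a difference of -1.34. It stands between HNRNPA3P5 and PCDH9, a protocadherin gene. HNRNPA3P5 averaged 16.34 ± 0.19 on knockdown arrays and 16.03 ± 0.02 on control arrays (SD, n = 3 each), a difference of 0.31. The means of PCDH9, 5.59 on knockdown arrays and 4.59 on control arrays, both lay below 6.28. TC01005047.hg.1 and TC01001825.hg.1 differed by -1.06 and -1.12. The deposited scale reaches 19.93, above the 16 of a 16-bit scanner, so folds at this end depend on a scale that is not the scanner's own.

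Transcripts within 5 numbers of a named probe set in the first 2 series, 127 higher and 111 lower, could be set beside named genes, and a tie went to the lower number. The nearest named probe set was at least 1 higher for 14 of the 127, against 1.94% of all 17665 unnamed probe sets so placed, and at least 1 lower for 1. Over all 42204 unnamed probe sets, placed or not, the nearest named probe set was at least 1 higher for 0.995% and at least 1 lower for 1.30%. For the 111 lower transcripts it was at least 1 lower for 13, against 2.77% of those placed, and at least 1 higher for 2. With either flanking gene counted, 20 of 127 and 16 of 111 had a named probe set that differed by at least 1 the same way, against 3.52% and 5.10%. For 104 of the higher and 90 of the lower transcripts neither flank reached a size of 1. Some transcripts share a nearest named probe set, so the 127 had 118 different ones, the 111 had 102 and all 17665 had 10220. Transcripts with identical values are also counted separately here. Neighbour and transcript come from the same arrays and contrast, so these counts are a description.

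The nearest named probe set had a median difference of 0.09 beside higher transcripts and -0.02 beside lower ones, and 0.01 beside all placed unnamed probe sets. For the 127 higher transcripts limma called the nearest named probe set higher in 40 cases and lower in 6. For the 111 lower transcripts it was called lower in 24 cases and higher in 8. For all placed unnamed probe sets the nearest named one was called higher for 12.9% and lower for 11.9%. Shared neighbours are counted once for each transcript. Over all probe sets, named or not, limma called 7.36% higher and 6.41% lower. Where a flanking gene of a higher transcript moved with it, the gene carried the preceding number in 17 cases and the following number in 3. For lower transcripts these were 11 and 8, with 3 counted in both. Preceding and following numbers were not counted apart for all placed unnamed probe sets, so nothing is read from this split.

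Examples of such flanks, chosen after their values were seen, include junction and receptor genes. TC21000050.hg.1 measured 7.08, 6.63 and 6.23 on knockdown arrays, against 3.77, 4.09 and 3.56 on control arrays, and stands next to CXADR, the tight junction receptor for coxsackie and adenoviruses. The difference was 2.84 for the transcript, whose lowest knockdown array lay just below 6.28, and 7.62 for CXADR. TC12000588.hg.1 measured 7.92, 7.56 and 7.99, against 5.37, 5.30 and 5.19, next to the chromatin protein gene HMGA2, with differences of 2.54 and 2.29. TC02000961.hg.1, next to the plakophilin family gene PKP4, differed by 1.45 and PKP4 by 1.73.

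On the lower side, TC02002809.hg.1 measured 5.11, 4.64 and 5.23 on knockdown arrays, against 6.30, 6.14 and 6.08 on control arrays, next to the ephrin receptor gene EPHA4. The differences were -1.18 for the transcript, whose means both lay below 6.28, and -5.26 for EPHA4. TC11001426.hg.1, next to DKK3, a secreted dickkopf family gene, differed by -1.68 and DKK3 by -1.69, while LINC00958, 5 numbers to the other side, differed by 1.39. TC11001514.hg.1, next to the neurotrophin gene BDNF, differed by -1.31 and BDNF by -1.23, where the knockdown mean of BDNF lay below 6.28 and its level was at least 1.33-fold higher in control cells. Both means of TC09000202.hg.1 lay below 6.28, and it differed by -1.52 beside RECK, a membrane-anchored inhibitor of matrix metalloproteinases, at -1.63.

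In some cases a flank differed the other way. TC02002474.hg.1 measured 7.50, 7.30 and 6.98 on knockdown arrays, against 9.32, 9.54 and 9.36 on control arrays, a difference of -2.15. It lies between ITGB6, an epithelial integrin gene 5 numbers before it that differed by 2.52, and DPP4, a cell-surface peptidase gene 4 numbers after it that differed by 5.94. Its groups did not overlap. TC04000880.hg.1 measured 13.03, 12.73 and 12.57 on knockdown arrays, against 10.12, 10.00 and 10.03 on control arrays, between RNA5SP173, at -0.03 with means below 6.28, and the teneurin gene TENM3, which differed by -0.86.

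Several large placed differences had flanks with small differences. MIR551B, AP1S1 and FSIP1 had means below 6.28 in knockdown and control cells. For AP1S1 and FSIP1, which stand beside lower transcripts, this limits the decrease they could show. TC03000902.hg.1 was 3.09 higher, between MIR551B at -0.06 and MYNN at 0.45. TC07000643.hg.1 was lower by 3.60, at 5.65, 5.86 and 5.58 on knockdown arrays against 8.80, 9.61 and 9.47 on control arrays, between TRIM56 at 0.08 and AP1S1 at 0.11. TC15001223.hg.1, beside FSIP1 at -0.14, differed by -3.54.

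**Figure D3:**
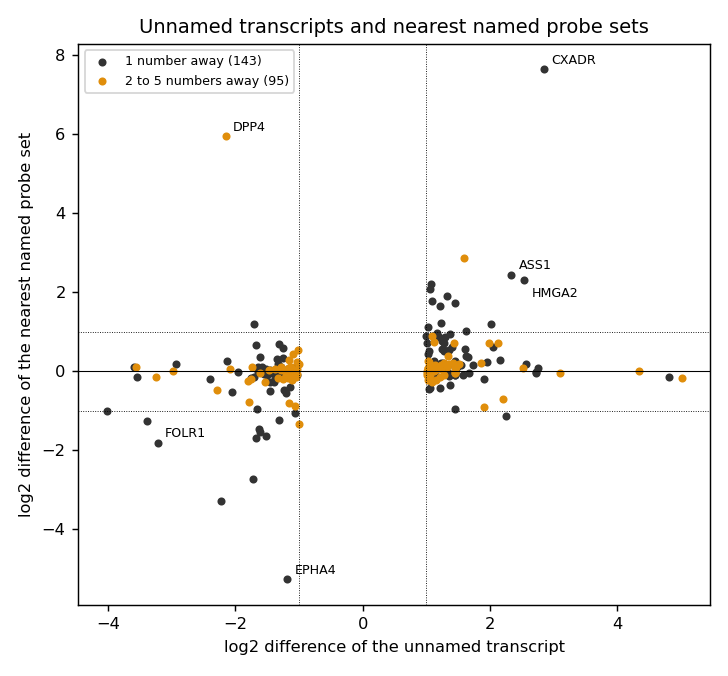
Each point is 1 of the 238 members within 5 numbers of a named probe set in the first 2 series, with its own log2 difference (SND1 knockdown minus vector control) across and that of the nearest named probe set upward, in black where it is 1 number away and in orange where it is 2 to 5 away. Most points lie between the dotted lines at -1 and 1 of the vertical axis, with CXADR at 7.62 and EPHA4 at -5.26 farthest out among neighbours on the transcript's side and DPP4 at 5.94 on the other.

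Members were spread unevenly over chromosomes. On chromosome 13, 26 of 1111 unnamed probe sets were higher and 6 lower (2.34% and 0.540%), and its named probe sets leaned the same way at 4.64% higher and 1.49% lower. Chromosome 14 leaned to lower levels, with 2 of 1378 higher and 20 lower (0.145% and 1.45%), next to 0.554% and 4.32% of its named probe sets. Chromosome 11 had 10 higher and 35 lower of 1969, next to 1.35% and 3.57% of named ones. The median difference over probe sets whose brighter group lay above 6.28 leaned the same way on these chromosomes. It was 0.34 for unnamed and 0.35 for named ones on chromosome 13, and -0.19 and -0.37 on chromosome 14. On chromosome 11 it was -0.10 and -0.11. Whether members differ apart from such shifts was not tested. The transcripts of 1 chromosome share arrays and are not independent measurements.

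On chromosome 19, 1 of 1114 unnamed probe sets was higher and 30 were lower, shares of 0.090% and 2.69%, compared with 0.966% and 2.38% of its named probe sets. The 3 transcripts of this chromosome among the 12 lowest differences were described above. Chromosomes 2 and 6 leaned to higher levels, with 1.08% higher and 0.371% lower of 3507 unnamed probe sets on chromosome 2 and 1.53% higher and 0.627% lower of 2870 on chromosome 6. Among named probe sets 3.56% were higher and 2.22% lower on chromosome 2, and 3.76% higher and 2.62% lower on chromosome 6. On some other chromosomes unnamed and named probe sets did not lean the same way. On chromosome 18, 1.52% of unnamed probe sets were higher and 0.609% lower, next to 1.45% and 4.65% of named ones. On chromosome 3 the shares were 1.63% and 1.09%, next to 1.79% and 2.315%. On chromosome 5 they were 0.867% and 0.619%, next to 1.41% and 3.92%. These shares count transcripts with identical values separately, and several of the higher ones on chromosome 2 share 1 measurement.

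**Figure D4:**
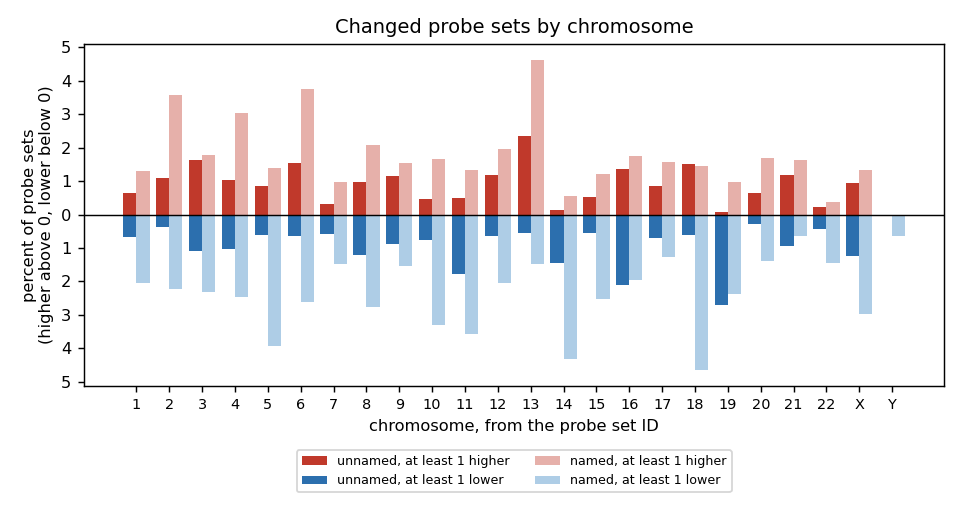
Bars give the percentage of probe sets of each chromosome with a log2 difference (SND1 knockdown minus vector control) of at least 1, upward, or at most -1, downward, in dark colours for unnamed and light colours for named TC probe sets. Chromosome 13 reaches 2.34% higher among unnamed probe sets, and chromosome 19 reaches 2.69% lower with 0.090% higher. Transcripts with identical values are counted separately, including 11 of the lower ones on chromosome 16.

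On alternative haplotypes of chromosome 6, which repeat the HLA region, 6 transcripts were higher and 0 lower. TC6_qbl_hap6000148.hg.1 differed by 1.62 and stands next to a probe set of HLA-B, the class I antigen gene, at 1.43. The other 5 differed by 1.01 to 1.12. Haplotypes of this region resemble each other in sequence, and whether the 6 are separate transcripts cannot be told from these files.

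Several members share values. Of the 751, 34 fell into 7 sets with the same levels on every array, which leaves 724 different sets of values. On chromosome 16, 11 lower transcripts shared a difference of -1.16, 8 of them as the consecutive numbers TC16000950.hg.1 to TC16000957.hg.1. Another 11, on chromosomes 2, 15, 16 and 22, shared a difference of 1.45, at 5.63, 4.93 and 6.75 on knockdown arrays against 4.72, 3.96 and 4.28 on control arrays. Members of a set share 1 measurement, and with each set counted once per chromosome there were 371 higher and 356 lower transcripts.

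Close but not identical levels, within 0.25 on each array, were found for 32 further pairs, each on 1 chromosome. Levels this close allow members of a pair to differ only in the same direction. Of the 32 pairs, 23 joined a transcript of the stretch to one in a series and 9 joined transcripts of the stretch. Besides the chromosome 5 pair described above, TC11001440.hg.1 and TC11003064.hg.1 differed by 2.75 and 2.78, and TC01004013.hg.1 and TC01006223.hg.1 by -2.98 and -3.01. TC11001440.hg.1 stands in the second series between RNA5SP331 at 0.09 and RRAS2, a RAS family gene, at -0.41, and TC01004013.hg.1 stands there between ZP4 at 0.03 and CHRM3-AS2 at 0.01. The sources used here do not say whether the transcripts of a pair share probes or a locus.

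Runs were formed by 3 or more members of 1 direction whose successive numbers lay at most 10 apart. There were 19 higher runs with 63 transcripts and 5 lower runs with 21, and 14 and 4 of these runs lay in the stretch. Transcripts with identical values left 17 higher and 4 lower runs that hold at least 3 different measurements. The longest higher run held 6 of the 13 probe sets from TC13001241.hg.1 to TC13001253.hg.1 on chromosome 13. Its members differed by 1.01 to 2.75, led by TC13001247.hg.1, and 6 of the other 7 probe sets were positive with a median of 0.07. The brighter group lay above 6.28 for only 3 of these 6 members. The longest lower run was the set of 8 identical values on chromosome 16, which lies between RRN3P3 at 0.09 and MIR548AA2 at 0.00.

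Other runs were shorter. TC03002646.hg.1 to TC03002655.hg.1 on chromosome 3 held 4 members at 1.28 to 3.17, TC04002624.hg.1 to TC04002627.hg.1 on chromosome 4 held 3 at 1.89 to 4.86, and TC02004425.hg.1 to TC02004429.hg.1 on chromosome 2 held 4 at 1.03 to 1.87. TC06003504.hg.1 to TC06003507.hg.1 were 4 consecutive numbers on chromosome 6, at 1.06 to 1.89. TC02004726.hg.1 to TC02004730.hg.1, first by chromosome number among several higher runs of 3, differed by 1.04 to 2.13. The brighter group lay above 6.28 for 3 of the 4 members on chromosome 3 and 2 of the 4 on chromosome 6. It did so for 1 of the 3 from TC02004726.hg.1 to TC02004730.hg.1. On the lower side, 4 members from TC14001714.hg.1 to TC14001735.hg.1 on chromosome 14 differed by -2.07 to -1.32 and 3 from TC14001935.hg.1 to TC14001944.hg.1 by -1.53 to -1.07. A chromosome 15 run, TC15002228.hg.1 to TC15002232.hg.1, held 3, led by TC15002231.hg.1 at -3.18, and a chromosome 8 run, TC08001985.hg.1 to TC08001989.hg.1, held 3 at -4.17 to -1.46. The brighter group lay above 6.28 for 1 of the 3 on chromosome 15. For the chromosome 8 run and the chromosome 14 run from TC14001935.hg.1 it did so for 2 of 3.

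Within the stretch, the differences of probe sets 1 number step apart correlated at Pearson's r of 0.13 over 22699 pairs, those 2 steps apart at 0.06 and those 50 steps apart at -0.002. These values are across probe sets that share arrays, and some may share probes. The order of numbers in the stretch was not otherwise checked against positions.

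**Figure D5:**
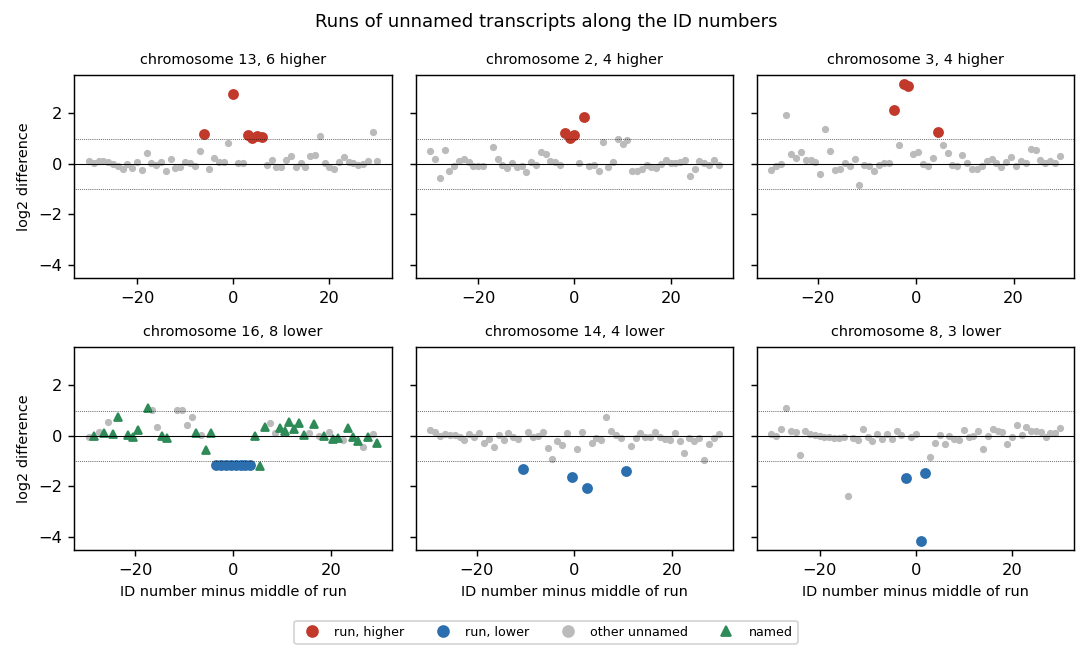
The 3 longest higher runs (top) and the 3 longest lower runs (bottom) are shown with all probe sets up to 30 numbers from the middle of the run, the ID number relative to that middle across and the log2 difference (SND1 knockdown minus vector control) upward. Runs of equal length were taken in order of chromosome number. Run members are red or blue, other unnamed probe sets grey and named ones green triangles, which appear only around the chromosome 16 run of 8 values at -1.16.

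In 9 members the SD of a group exceeded 1 log2 unit. Knockdown array 1 was the highest and array 3 the lowest of the knockdown arrays in 6 of them. TC04000276.hg.1 measured 13.08, 8.99 and 3.63 on knockdown arrays, against 3.17, 6.68 and 9.12 on control arrays, so its groups overlapped across the whole range, and its difference was 2.25 with all arrays and 4.72 without knockdown array 3. TC09001017.hg.1 measured 11.38, 9.65 and 7.74, against 12.14, 11.28 and 11.60, and its difference of -2.08 was -1.16 without that array. Without it TC15000464.hg.1 and TC10001334.hg.1, at -1.80 and -1.28 with it, no longer met the rule, at -0.94 and -0.46. TC04000772.hg.1 and TC16000067.hg.1 were also highest on knockdown array 1 and lowest on array 3, with differences of -1.95 and -1.45.

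Groups overlapped in 9 members. Besides TC04000276.hg.1, TC09001017.hg.1, TC10001334.hg.1 and TC15000464.hg.1 they were TC01001739.hg.1, TC09000447.hg.1, TC11001614.hg.1, TC12001198.hg.1 and TCUn_gl000221000001.hg.1. Of these 9, 3 were higher and 6 lower in knockdown cells. Leaving out each array in turn, 546 of the 751 met the rule every time, 268 higher and 278 lower.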

How the data were processed

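The 6 arrays gave log2 expression per probe set as deposited by the authors. The submitters' processing notes name RMA, without a version, and per the labels' protocols 6 µg of total RNA was labelled for each array. The deposited normalization was kept, and no detection calls, scanner files or batches were used. Of the deposited values, 4457 exceeded 16. Members and lists were chosen with earlier results of these data known, and the counts of members were not tested. Symbols came from the platform annotation, updated through Entrez identifiers in the RefSeq table (GRCh38.p14), which gave positions for the genes of 21494 probe sets. The sources used here do not give the build behind the IDs.

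Over all 70523 probe sets, limma 3.58.1 in R 4.3.3 (lmFit, eBayes, no filter or covariate) was fitted with Benjamini-Hochberg adjustment at 0.05, which was tested on simulated data. The number of arrays limits precision. Transcripts named by rule were the 12 highest and 12 lowest differences above background, the 3 nearest each side of each threshold, the brightest 3 per direction and the 5 longest runs per direction, with their flanking genes. Runs of equal length were taken in order of chromosome number. Other genes and transcripts were named after their values were seen. Alternatives were renewed quantile normalization, a background floor, a level filter, group medians, other neighbour rules, a robust prior, a replicate block and leaving out each array. Promoters on chromosome 8 were not used here.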

Additional observations from a re-analysis of the deposited data

How the results depend on the processing

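The counts of unnamed transcripts, 385 higher and 366 lower, ranged from 379 to 423 and from 359 to 429 with 1 array left out. Raising levels to the highest background mean left 225 and 216. The other alternatives kept both counts within 1.5 times, and 723 of the 751 met the rule after renewed quantile normalization. Over all unnamed transcripts, 15 higher and 14 lower ones had a nearest named probe set with a difference of at least 1 the same way, in a range of 11 to 17 and 12 to 20 with 1 array left out. The median of 3 named probe sets on each side gave 0 and 1. Any size in the same direction gave 232 of 385 and 184 of 366, most of them in the stretch, where the nearest named number marks no neighbour. Among placed members the nearest named probe set was positive for 80 of 127 higher ones and negative for 59 of 111 lower ones. Over all 17665 placed unnamed probe sets it was positive for 9105 and negative for 8560, so nothing is read from these counts. Limma called 5194 probe sets higher and 4518 lower, in a range of 3466 to 4660 and 3107 to 4269 with 1 array left out. With the replicate number as a block the counts were 3540 and 3182. The labels do not say that same-numbered arrays belong together, and their deviations correlated at 0.0097, -0.0291 and -0.0629. SND1 was lower in all alternatives, by limma, at -2.96 to -2.81 with 1 array left out. Identical values counted once was chosen after seeing the data. Without detection calls, differences between dim levels cannot be told from those within background.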

Other observations

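Probe sets with other IDs entered the model, correlations and shares over all probe sets above but are not members. Of 1437 with an ID starting PSR, 2 differed by at least 1 log2 unit upward (SND1 knockdown minus vector control) and 9 by at least 1 downward, a share of 0.765%. Of 28 with an ID starting JUC, 0 did in either direction. Of 1344 with numeric or other IDs, leaving out array controls and spike-ins, 61 were at least 1 higher and 35 at least 1 lower, a share of 7.14%. These probe sets carry no symbol or chromosome here.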
